A study of Mus musculus with 6 samples.

Results

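The genes of the major histocompatibility complex (MHC), which in the mouse carry the prefix H2-, were examined together with genes that make, cut and load the peptides they present, in stria vascularis of mice lacking Slc26a4. Members were all probe sets of the array whose platform gene symbol begins with H2- or is 1 of 25 named genes of antigen processing, MHC regulation and costimulation. This gave 108 of the 45037 probe sets tested. Of these, 91 had a single symbol and stood for 47 of the 18193 genes that could be named. The other 17 probe sets had several symbols in the annotation and were counted apart. Psme2, the beta subunit of the proteasome activator, was measured only by a probe set of this kind. One symbol, H2-Ke6, names a steroid dehydrogenase encoded in the MHC region and not an antigen-presenting chain.

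Stria vascularis lines part of the lateral wall of the cochlea and produces the endocochlear potential. RNA from this tissue of adult 129S6 mice was hybridised to 6 Affymetrix mouse arrays, 3 from Slc26a4+/+ (wild-type) mice and 3 from Slc26a4-/- mice, which lack the anion exchanger pendrin. RNA of 2 animals was pooled for each array and amplified in 2 rounds, and the mice were not perfused, so capillary blood was included. The comparison asks which transcripts differ in the adult tissue of mice without pendrin.

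MHC class I molecules pair a heavy chain with beta-2 microglobulin and present peptides from the cytosol on nearly all nucleated cells. These peptides are cut by the proteasome, whose catalytic subunits can be replaced by the inducible subunits of the immunoproteasome, carried into the endoplasmic reticulum by the transporter TAP and loaded with the help of tapasin. MHC class II molecules pair an alpha with a beta chain, are escorted by the invariant chain and present peptides made in endosomes, chiefly on macrophages, dendritic cells and B cells. CIITA and NLRC5 are the transactivators of class II and class I genes, and RFX proteins bind their promoters.

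The promoters of the genes the results turn on are shown with letters like those of the boxes through which these regulators act. A match of letters does not show that a regulator acts there. RefSeq promoter windows (250 bases before to 50 after the start of transcription, GRCm38.p6) were at hand for 41 of the 64 symbols found on member probe sets. The stretches below lie at chr17:34287847-34287924 (minus strand) for H2-Aa, chr17:34305755-34305832 (plus strand) for H2-Eb1, chr17:34325522-34325599 (plus strand) for H2-Eb2 and chr17:34092283-34092360 (plus strand) for H2-Oa. They are written 5′ to 3′ on the strand of the gene and aligned on the Y box CTGATTGG. Capitals mark this box, the letters AACTGATG, which overlap the X box, and the X2 box TGACGTCA.
H2-Aa: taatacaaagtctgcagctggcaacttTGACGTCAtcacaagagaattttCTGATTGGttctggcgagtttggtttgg
H2-Eb1: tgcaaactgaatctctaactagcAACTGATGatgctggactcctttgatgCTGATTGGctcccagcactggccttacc
H2-Eb2: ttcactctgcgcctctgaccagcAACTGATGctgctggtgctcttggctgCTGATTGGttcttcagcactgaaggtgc
H2-Oa: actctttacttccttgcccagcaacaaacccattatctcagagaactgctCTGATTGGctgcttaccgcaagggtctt

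Letters were searched on both strands. CTGATTGG occurred in 4.1% of all 32851 promoter windows, AACTGATG in 0.776% and TGACGTCA in 1.79%. H2-Eb1 and H2-Eb2 carried the first 2, and H2-Aa alone among the 41 member genes with a window carried the palindrome TGACGTCA. H2-Aa and H2-Eb1 rose in Slc26a4-/- stria, while H2-Eb2 and H2-Oa did not pass the test.

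Class I promoters are compared by the stretches at chr17:35262914-35263055 (plus strand) for H2-D1, chr17:34000326-34000467 (minus strand) for H2-K1, chr17:35424668-35424809 (plus strand) for H2-Q6 and chr17:35439012-35439153 (plus strand) for H2-Q7. Capitals mark the kappa B letters GGGATTCCC and the interferon response letters GAANNGAAA, the latter here read on the other strand. They also mark the letters CTGATTGG, on the other strand too. The search matched letters only, and CTGATTGG was not shown to be the Y box of these class I genes. Each stretch also holds the letters ATTGG on the strand shown, which are not in capitals.
H2-D1: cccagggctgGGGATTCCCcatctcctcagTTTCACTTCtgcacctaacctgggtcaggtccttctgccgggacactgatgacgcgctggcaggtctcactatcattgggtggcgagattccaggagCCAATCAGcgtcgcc
H2-K1: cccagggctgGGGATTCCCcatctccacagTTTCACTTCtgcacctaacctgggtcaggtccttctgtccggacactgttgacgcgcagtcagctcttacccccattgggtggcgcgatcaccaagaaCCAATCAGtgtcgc
H2-Q6: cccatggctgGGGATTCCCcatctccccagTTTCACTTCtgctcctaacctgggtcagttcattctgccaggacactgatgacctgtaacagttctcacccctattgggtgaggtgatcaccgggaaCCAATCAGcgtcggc
H2-Q7: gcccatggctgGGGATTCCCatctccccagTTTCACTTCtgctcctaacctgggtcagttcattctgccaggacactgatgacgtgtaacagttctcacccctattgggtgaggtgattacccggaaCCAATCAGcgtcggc

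All 4 carried the marked letters in the same order. GGGATTCCC was found in 0.353% of all windows and GAANNGAAA in 7.52%. Among the 41 member genes with a window, 4 held GGGATTCCC, and these were the 4 shown.

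Psmb9 and Tap1, an immunoproteasome subunit and a chain of the peptide transporter, start 226 bases apart and are transcribed away from each other, so that their windows overlap by 275 bases. The window is shown because both genes share it and only 1 of them passed the test. It lies at chr17:34187281-34187580 (minus strand), with the letters CTGATTGG in capitals.
Psmb9 and Tap1: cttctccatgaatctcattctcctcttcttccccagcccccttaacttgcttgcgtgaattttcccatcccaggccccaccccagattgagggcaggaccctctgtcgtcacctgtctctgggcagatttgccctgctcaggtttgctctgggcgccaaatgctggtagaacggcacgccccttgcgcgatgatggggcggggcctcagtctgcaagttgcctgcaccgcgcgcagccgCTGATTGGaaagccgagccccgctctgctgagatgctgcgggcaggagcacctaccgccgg

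In the gene table of GRCm38.p6 the protein-coding genes H2-DMa, H2-DMb2, H2-DMb1, Psmb9, Tap1, Psmb8, Tap2, H2-Ob, H2-Ab1 and H2-Aa follow each other in this order. Psmb9, Psmb8, H2-Ab1 and H2-Aa rose in Slc26a4-/- stria. Probe sets of H2-DMa, H2-DMb2, Tap1, Tap2 and H2-Ob, which lie between or beside them, did not pass.

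Values are signals, the array's intensity for a probe set on a linear scale, given in the order of replicates 1, 2 and 3. Differences were tested by limma on log2 signals, with Benjamini-Hochberg adjusted p-values taken over every probe set, and errors are standard errors of this fit. A signal is said to be above background where it exceeded the 95th percentile of 44 probe sets of olfactory receptor genes on the same array, which was between 187 and 319. Where a gene was above background on no array of a genotype, a fold is given, if at all, only as a lower bound, the mean of the brighter group against the background. Log2 differences and medians that include such sets are those of the fit and not measured folds. In whole tissue a change in the number of cells of a type and a change in RNA per cell cannot be told apart.

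Slc26a4 itself read 1354, 1262 and 793 in Slc26a4+/+ against 520.2, 717 and 618.5 in Slc26a4-/-. The difference of -0.85 ± 0.23 on the log2 scale did not pass the test (adjusted p = 0.119, limma), and no source used here says whether its probes lie in the deleted part. The genotypes also differed in sex-linked RNA. Xist was between 771 and 3358 in Slc26a4+/+ and between 5530 and 5863 in Slc26a4-/-, and the Y-linked Eif2s3y between 639.9 and 1541 against 3.1 to 3.6, so that sex and genotype cannot be told apart. Gapdh 3′ signal over its 5′ signal, a sign of RNA integrity, was 2.25, 7.19 and 10.5 in Slc26a4+/+ and between 3.34 and 3.80 in Slc26a4-/-. Mean signals were between 666 and 725.

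Of the 108 member probe sets 18 were higher and 1 was lower in Slc26a4-/- stria (limma, adjusted p under 0.05). These are 16.7% higher, where 1.19% of all probe sets tested were higher and 0.54% were lower. Their median difference was 0.39 on the log2 scale, against -0.06 for all probe sets. In 39 members each Slc26a4-/- array was above each Slc26a4+/+ array and in 3 each was below, where this held for 8.46% and 9.4% of all probe sets. Some counts below use an unadjusted p under 0.05 (limma). At that level 2768 of all 45037 probe sets were higher and 2597 lower, and 36 members were higher and 2 lower. In all, 30 members were above background on all 6 arrays, and 50 were above it on none. Among the 30 the median difference was 0.67 and 11 were higher.

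The 19 calls, like those over all probe sets, depended on the way the spread was estimated and on single arrays. None of the 19 passed with a prior spread that does not follow the signal, where 114 of all probe sets passed in place of 778. None passed with Xist in the model, where 27 of all probe sets did. Xist did not overlap between genotypes, so this model could hardly tell Xist and genotype apart. Without replicates 1, 2 and 3 of Slc26a4+/+ 18, 10 and 16 of the 19 passed, and without replicates 1, 2 and 3 of Slc26a4-/- 8, 4 and 3. In the same order 1714, 384 and 927, and 257, 266 and 219, of all probe sets passed. The sign of all 19 differences was the same in each of these settings. H2-D1 (1451683_x_at) and the probe set shared by H2-Q9 and H2-Q7 passed whichever single array was left out.

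**Figure D1:**
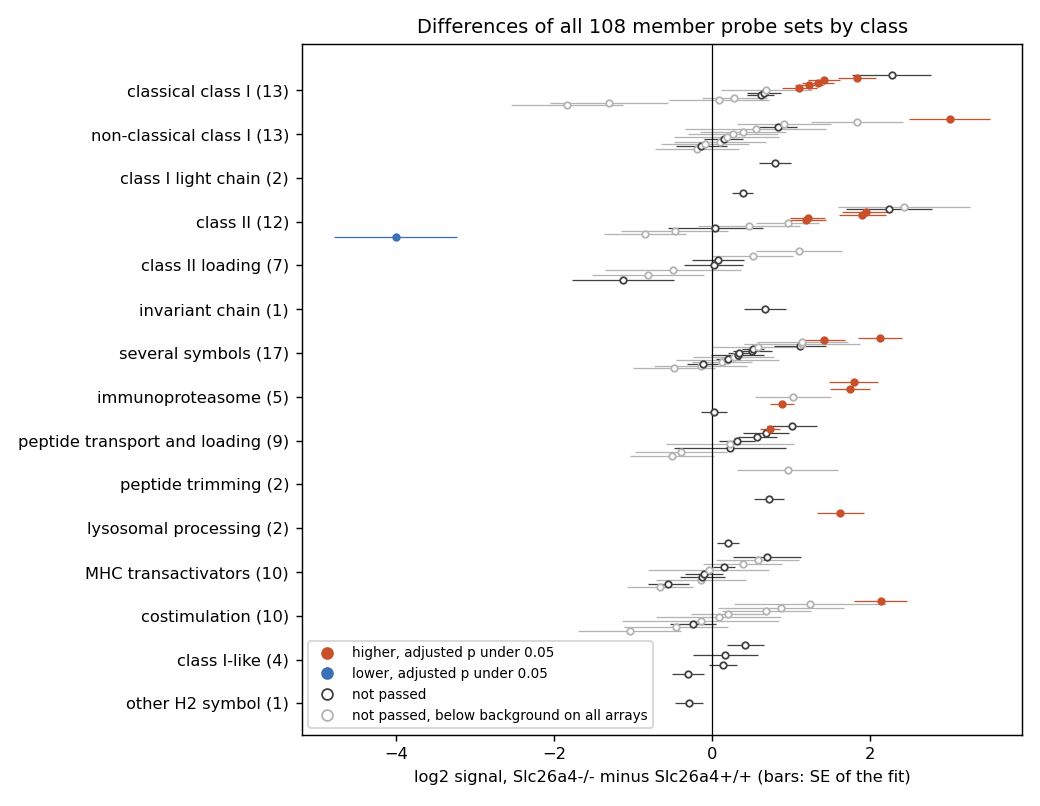
Difference in log2 signal, Slc26a4-/- minus Slc26a4+/+, of each of the 108 member probe sets (points, with the standard error of the limma fit), by class, with the number of probe sets in parentheses. Filled points passed the test, 18 upward and 1 downward. Pale open points were above background on no array, and for sets above it on no array of 1 genotype the difference plotted is that of the fit, not a measured fold.

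Classical class I heavy chains rose. H2-D1 and H2-K1 encode the chains that present peptides to CD8+ T cells, and 5 of their 13 probe sets were higher and 0 lower. For H2-D1 the probe set with the highest signal (1425545_x_at) read 4728, 4069 and 2695 in Slc26a4+/+ against 8817, 9774 and 9896 in Slc26a4-/-. It rose 2.54-fold, or by 1.35 ± 0.20 on the log2 scale (adjusted p = 0.00925). All Slc26a4-/- arrays lay above all Slc26a4+/+ arrays, which held their lowest value on replicate 3, the array with a Gapdh 3′ to 5′ ratio of 10.5.

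Another H2-D1 probe set (1451784_x_at) gave 2983, 2677 and 1687 in Slc26a4+/+ against 5721, 6760 and 6733 in Slc26a4-/-, a rise of 1.42 ± 0.21 (adjusted p = 0.00843). One further set (1451683_x_at) gave 849.5, 1064 and 507 in Slc26a4+/+ against 2657, 2660 and 2974 in Slc26a4-/-, a rise of 1.84 ± 0.24 (adjusted p = 0.00508). The 3 sets rose by between 1.35 and 1.84 on the log2 scale. One more H2-D1 set (1426324_at) read 246, 167 and 48.5 in Slc26a4+/+ against 563, 598 and 677 in Slc26a4-/- and missed the threshold (adjusted p = 0.058). The remaining 5 were above background on no array, and their differences were between -1.83 and 0.69.

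H2-K1 was measured by 4 probe sets that disagreed in call. The one with the highest signal (1425336_x_at) read 7284, 7121 and 4912 in Slc26a4+/+ against 9377, 9733 and 10141 in Slc26a4-/-, a difference of 0.62 ± 0.17 that did not pass (adjusted p = 0.135). A second (1451931_x_at) read 2435, 2968 and 1865 in Slc26a4+/+ against 5232, 5719 and 5825 in Slc26a4-/- and rose by 1.23 ± 0.17 (adjusted p = 0.00763). A further set (1427746_x_at) read 883, 738 and 592 in Slc26a4+/+ against 1240, 1491 and 2101 in Slc26a4-/- and rose by 1.11 ± 0.22 (adjusted p = 0.039). In each of these the genotypes did not overlap, and Slc26a4-/- replicate 1 was the lowest array of its genotype. The last (1450534_x_at) read 541, 588 and 519 in Slc26a4+/+ against 625, 999 and 1045 in Slc26a4-/- (adjusted p = 0.22). All 5 classical class I probe sets that rose are of the kind marked x, which can hold probes matching related sequences, so signal cannot be divided with certainty between H2-K1, H2-D1 and their relatives. A set annotated to both genes read 937, 1051 and 431 in Slc26a4+/+ against 1449, 1315 and 2300 in Slc26a4-/- and did not pass (adjusted p = 0.166).

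B2m encodes beta-2 microglobulin, the light chain of all class I molecules. Its brighter probe set read 10421, 9997 and 8738 in Slc26a4+/+ against 12712, 12453 and 13008 in Slc26a4-/-. The other read 8264, 7144 and 4635 in Slc26a4+/+ against 11486, 10834 and 11722 in Slc26a4-/-. The genotypes did not overlap in either, but the differences of 0.39 ± 0.13 and 0.80 ± 0.20 did not pass (adjusted p = 0.257 and 0.0989).

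Non-classical class I genes, whose products have narrower roles, were mostly dim: 1 of 13 probe sets with a single symbol was higher and 0 were lower. That set (1430802_at, H2-Q5) read 18.8, 43.2 and 24.5 in Slc26a4+/+ against 182, 164 and 349.9 in Slc26a4-/- (adjusted p = 0.0176). It was above background on a single array, Slc26a4-/- replicate 3, so no fold is given, and the other H2-Q5 set did not pass. H2-M3 presents N-formylated peptides, and read 177, 168 and 188 in Slc26a4+/+ against 323, 266 and 375 in Slc26a4-/- (adjusted p = 0.156). H2-Bl and 1 set of H2-T3 were above background on some arrays, with differences of 0.15 and -0.13. The 9 other sets, of H2-D4, H2-M10.1, H2-M9, H2-Q10, H2-Q2, H2-Q5, H2-T18, H2-T24 and H2-T3, were above background on no array, and none passed.

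Probe sets with several symbols added the Q region, whose H2-Q7 and H2-Q9 products form the Qa-2 antigen. The set shared by H2-Q9 and H2-Q7 read 229.9, 182 and 198 in Slc26a4+/+ against 704, 703 and 1400 in Slc26a4-/-, a rise of 2.13 ± 0.28 (adjusted p = 0.00511). The set shared by H2-Q6 and H2-Q8 read 497, 577 and 738 in Slc26a4+/+ against 1715, 1081 and 2213 in Slc26a4-/-, a rise of 1.43 ± 0.26 (adjusted p = 0.025). In both, Slc26a4-/- replicate 3 was the highest array. Among the Slc26a4+/+ arrays the first set exceeded background on replicate 1 alone.

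The T region sets did not pass. The set of H2-T23 and H2-T-ps, where H2-T23 encodes Qa-1, a ligand of the CD94/NKG2 receptors of NK cells, read 4426, 5843 and 5153 in Slc26a4+/+ against 5541, 5606 and 6640 in Slc26a4-/- (adjusted p = 0.655). The set of H2-T9, H2-T22 and H2-T10, of which H2-T10 and H2-T22 are ligands of some gamma delta T cells, read 2061, 2247 and 2114 in Slc26a4+/+ against 3280, 2671 and 3340 in Slc26a4-/-, a difference of 0.53 ± 0.14 (adjusted p = 0.118). Whether Q and T sets differ from each other was not tested. In all, 2 of the 17 probe sets with several symbols were higher and 0 were lower.

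**Figure D2:**
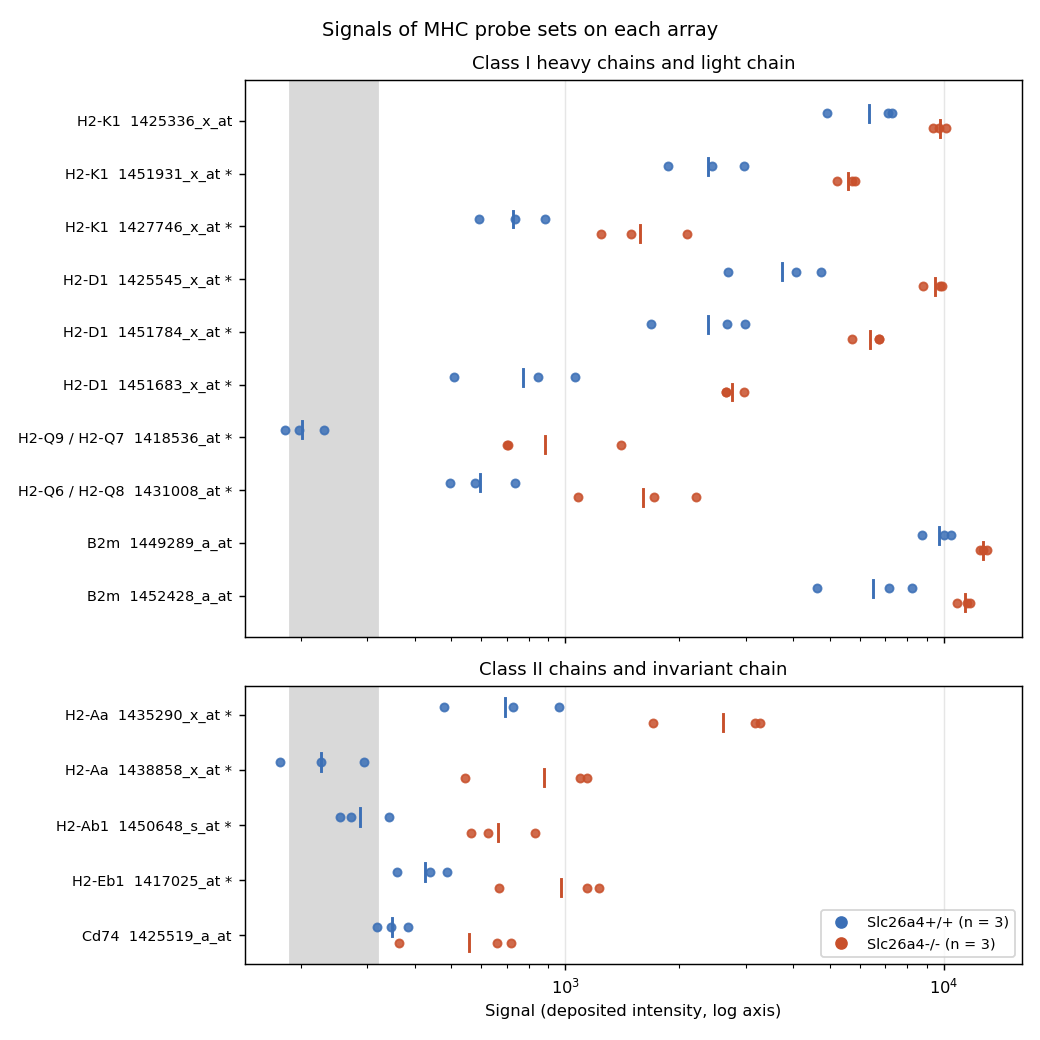
Signal on each array (points, log axis; vertical bars are geometric means of 3 arrays) for class I and class II probe sets, with an asterisk where the difference passed the test. The grey band is the range of the background over the 6 arrays, 187 to 319, and Slc26a4-/- arrays lie above Slc26a4+/+ arrays in all sets shown but Cd74.

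Class II chains rose as well. Of 12 probe sets of H2-Aa, H2-Ab1, H2-Ea, H2-Eb1 and H2-Eb2, 4 were higher and 1 was lower. H2-Aa encodes the alpha chain of the I-A molecule, and its set of highest signal (1435290_x_at) read 479, 959.8 and 727 in Slc26a4+/+ against 1710, 3272 and 3169 in Slc26a4-/-. This was a 3.76-fold rise, 1.91 ± 0.30 on the log2 scale (adjusted p = 0.012). Slc26a4-/- replicates 2 and 3 lay close together, and replicate 1 lay between them and the highest Slc26a4+/+ array.

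A second H2-Aa set (1438858_x_at) read 176, 226 and 294 in Slc26a4+/+ against 544, 1143 and 1097 in Slc26a4-/-. It was above background on no Slc26a4+/+ array and was at least 3.41-fold higher in Slc26a4-/- (adjusted p = 0.0131). The other 2 H2-Aa sets were dim, with adjusted p = 0.0888 and 0.256.

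H2-Ab1, the beta chain of I-A, read 254, 342 and 272 in Slc26a4+/+ against 564, 834 and 625 in Slc26a4-/- in its brightest set, a rise of 1.21 ± 0.22 (adjusted p = 0.0242). H2-Eb1, the beta chain of I-E, read 361, 488 and 439 in Slc26a4+/+ against 667, 1138 and 1224 in Slc26a4-/- and rose by 1.20 ± 0.25 (adjusted p = 0.0434). In both the genotypes did not overlap and Slc26a4-/- replicate 1 was the lowest of its genotype. The H2-Ab1 sets 1451721_a_at and 1425477_x_at were above background on no array and did not pass (adjusted p = 0.373 and 0.839). The call of H2-Eb1 was the least steady of the class, since 5 of the 17 alternatives tried kept it past the threshold.

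RNA of the alpha chain of I-E was not above background. The 3 H2-Ea sets were above background on no array, and the 1 lower call among all members was one of them (1426202_at), with 36.0, 64.5 and 76.4 in Slc26a4+/+ against 7.1, 4.7 and 1.3 in Slc26a4-/- (adjusted p = 0.0347), all below background. H2-Eb2, a second beta chain gene, read 58.7, 278 and 260.0 in Slc26a4+/+ against 106, 284 and 155 in Slc26a4-/- and overlapped between genotypes (adjusted p = 0.987).

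The invariant chain Cd74, which fills the groove of new class II molecules, read 346, 318 and 384 in Slc26a4+/+ against 364, 720.2 and 659 in Slc26a4-/-, a difference of 0.68 ± 0.27 that did not pass (adjusted p = 0.34). Slc26a4-/- replicate 1 lay within the range of the Slc26a4+/+ arrays and the other Slc26a4-/- arrays above it. H2-DM exchanges peptide on class II molecules and H2-DO restrains it. None of the 7 probe sets of H2-DMa, H2-DMb2, H2-Oa and H2-Ob passed in limma, 0 had an unadjusted p under 0.05, and their median difference was 0.02. H2-DMa read 129, 188 and 259 in Slc26a4+/+ against 166, 245 and 181 in Slc26a4-/-. The 2 sets shared by H2-DMb2 and H2-DMb1 did not pass (adjusted p = 0.77 and 0.471).

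Class I and class II were set against each other by the set of highest signal of each gene, on each array. The rise of H2-Aa exceeded the difference of H2-K1 by 1.29 on the log2 scale, with no overlap between genotypes (exact permutation test, two-sided, p = 0.1, the smallest that 3 against 3 arrays allow). H2-Ab1 exceeded H2-K1 by 0.59 (exact p = 0.1) and H2-Eb1 exceeded it by 0.58 (exact p = 0.2). These excesses depend on the H2-K1 set used (1425336_x_at, 0.62), which did not pass. H2-K1 sets 1451931_x_at and 1427746_x_at rose by 1.23 and 1.11, near the 1.21 of H2-Ab1 and 1.20 of H2-Eb1. The remaining H2-K1 set (1450534_x_at) differed by 0.66 and did not pass. Against H2-D1 the differences were 0.56 for H2-Aa, -0.13 for H2-Ab1 and -0.15 for H2-Eb1 (exact p = 0.4, 0.8 and 0.7). After Benjamini-Hochberg adjustment over the 6 pairs the smallest p was 0.3. With 3 arrays against 3 the test cannot pass the threshold, so it does not say whether these pairs differ. The pairs were chosen after the values were known. Over all probe sets the median difference was 0.59 for class I (26 probe sets, 6 higher) and 0.47 for class II, loading genes included (19 probe sets, 4 higher and 1 lower), and over the sets above background on all 6 arrays it was 1.23 (7 sets) and 1.55 (2 sets). The order turns with the genes counted, since the 12 class II chain sets alone had a median of 1.08, against 0.69 for the 13 sets of classical class I.

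Some markers of macrophages were higher in Slc26a4-/- stria as well. Of 13 macrophage markers measured, Ptprc, Cd68, Aif1, Tyrobp and Lyz2 rose, 0 fell and 8 did not pass. The summed signal of the 13 was between 6847 and 10121 in Slc26a4+/+ and between 26210 and 27405 in Slc26a4-/-. Lyz2 made up the largest part of this rise, with a mean of 516 in Slc26a4+/+ and 10124 in Slc26a4-/-. Cd68, a lysosomal glycoprotein of macrophages, read 125, 174 and 211 in Slc26a4+/+ against 1313, 1441 and 1278 in Slc26a4-/- (adjusted p = 0.000171). Itgam, Fcgr1 and Cd163 were above background on no array. Their part in the MHC results was not tested. Of the 10 macrophage markers above background on all Slc26a4-/- arrays, replicate 1 was the lowest array of its genotype in 3, replicate 2 in 5 and replicate 3 in 2.

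None of the markers of dendritic cells, B cells, T cells and NK cells passed the test upward in limma. Among 7 dendritic cell markers Fscn1 fell, and at an unadjusted p under 0.05 Itgax and Zbtb46 were higher. Itgax, which encodes the integrin CD11c, read 56.9, 177 and 140 in Slc26a4+/+ and 355, 375 and 394 in Slc26a4-/- (adjusted p = 0.0706), above background on none of the former arrays and on all 3 of the latter. Zbtb46 had an adjusted p of 0.391, and Flt3, Ccr7, Cd209a and Xcr1 were above background on no array. Among 6 B cell markers 0 passed in limma, with Cd22 higher and Blk lower at an unadjusted p under 0.05. Cd22 read 142.5, 194.5 and 382.5 in Slc26a4+/+ against 550.9, 455.1 and 497.4 in Slc26a4-/- (adjusted p = 0.144). Ms4a1, Cd79a, Cd79b and Blk were above background on no array. Among 8 T and NK cell markers 0 passed in limma, with Cd4 higher at an unadjusted p under 0.05. Cd4 read 11.5, 21.6 and 30.5 in Slc26a4+/+ against 346.3, 67.5 and 300.3 in Slc26a4-/- (adjusted p = 0.0525). It was above background on 2 Slc26a4-/- arrays and no Slc26a4+/+ array. Cd3d, Cd3e and Cd3g were above background on no array. Markers of the tissue itself were present, since 5 of 5 intermediate, 4 of 4 basal and 5 of 6 marginal cell markers were above background on all arrays. Of the 6 marginal cell markers Kcne1 fell and 0 rose. At an unadjusted p under 0.05 (limma) 5 were lower, as were 2597 of all 45037 probe sets. At that level 2 of the 5 intermediate cell markers were higher, as were 2768 of all probe sets. Of 5 markers of spiral ligament, the tissue next to stria vascularis, Otos, Dcn and Ucma rose. The part of tissue composition and dissection in the MHC results was not tested.

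The immunoproteasome rose in its 3 catalytic subunits. Psmb8 read 111, 141 and 232 in Slc26a4+/+ against 629.7, 407 and 595 in Slc26a4-/- and was at least 2.07-fold higher in Slc26a4-/- (adjusted p = 0.0203). Psmb9 read 156, 170.4 and 144 in Slc26a4+/+ against 687, 522 and 407 in Slc26a4-/- and was at least 2.04-fold higher (adjusted p = 0.00792). Both were above background on no Slc26a4+/+ array and on all Slc26a4-/- arrays. A second Psmb8 set (1444619_x_at) was above background on no array and did not pass (adjusted p = 0.447). Psmb10 read 553, 586 and 651 in Slc26a4+/+ against 1223, 1032 and 1065 in Slc26a4-/-, a rise of 0.89 ± 0.16 (adjusted p = 0.021).

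The standard subunits that these replace are Psmb5, Psmb6 and Psmb7. Psmb5 read 4690, 5661 and 4883 in Slc26a4+/+ against 4878, 5190 and 5066 in Slc26a4-/- and Psmb6 3689, 4645 and 4856 in Slc26a4+/+ against 4113, 4695 and 4370 in Slc26a4-/-, with differences of -0.01 and 0.01. Psmb7 read 3022, 1838 and 885 in Slc26a4+/+ against 2983, 2944 and 2739 in Slc26a4-/-, spread widely among the Slc26a4+/+ arrays and did not pass (adjusted p = 0.438). None of 17 genes of the standard proteasome and its other activators passed in limma, with 1 lower and 0 higher at an unadjusted p under 0.05.

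The activator that opens the proteasome did not pass. Psme1, its alpha subunit, read 2395, 2096 and 1668 in Slc26a4+/+ against 1913, 2266 and 2067 in Slc26a4-/-, a difference of 0.03 ± 0.16 (adjusted p = 0.965). The set of Psme2b and Psme2 read 1745, 1786 and 1421 in Slc26a4+/+ against 2090, 2035 and 2160 in Slc26a4-/- (adjusted p = 0.353).

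Of the peptide transport and loading genes 1 of 4 rose. Tapbp encodes tapasin, which bridges TAP and class I heavy chains, and read 2279, 2257 and 2065 in Slc26a4+/+ against 3822, 3618 and 3578 in Slc26a4-/-, a rise of 0.74 ± 0.12 (adjusted p = 0.0175). Values within each genotype lay close together. A second Tapbp set (1450378_at), above background on no Slc26a4+/+ array, did not pass (adjusted p = 0.2). Tap1 read 219, 362 and 362 in Slc26a4+/+ against 687, 360.4 and 483 in Slc26a4-/-, with Slc26a4-/- replicate 2 inside the Slc26a4+/+ range (adjusted p = 0.387), and Tap2 read 501, 532 and 404 in Slc26a4+/+ against 715, 441 and 668 in Slc26a4-/- (adjusted p = 0.641). Tapbpl, the tapasin-related peptide editor, read 207, 269 and 222 in Slc26a4+/+ against 437, 307 and 307 in Slc26a4-/- (adjusted p = 0.379). Erap1, which trims peptides in the endoplasmic reticulum, read 336, 264 and 317 in Slc26a4+/+ against 489.8, 531 and 489.9 in Slc26a4-/- without overlap but did not pass (adjusted p = 0.116).

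**Figure D3:**
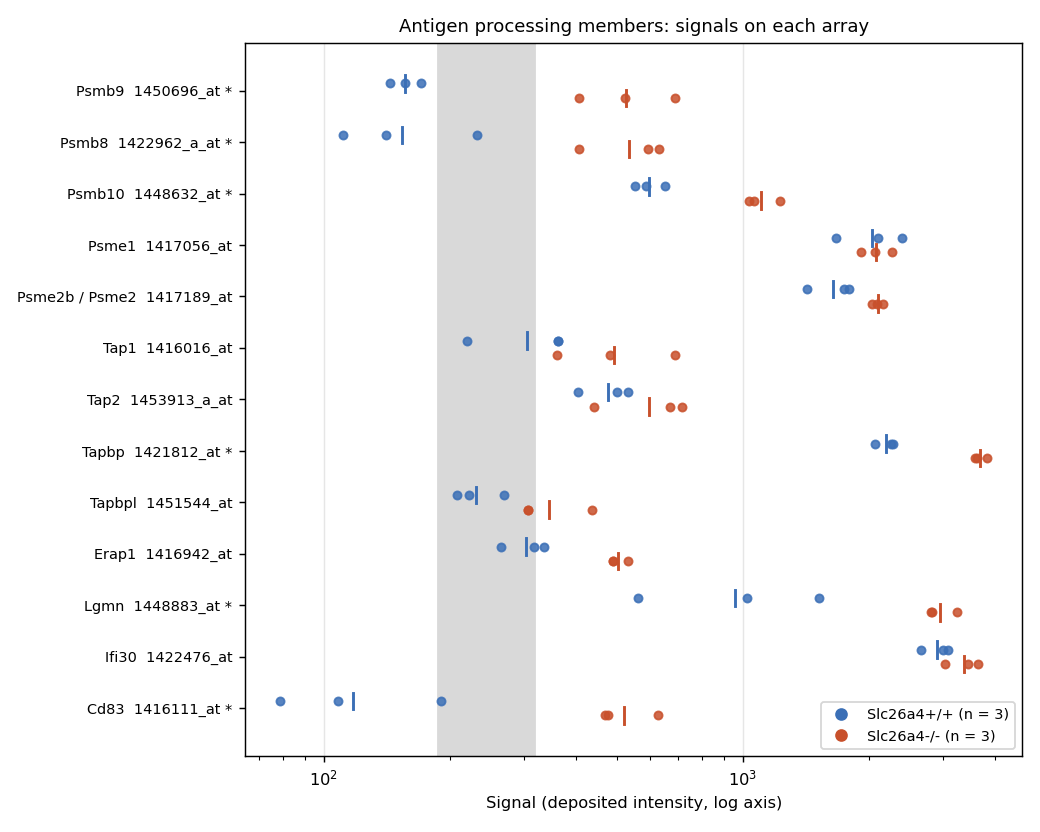
Signal on each array (points, log axis; vertical bars are geometric means of 3 arrays) for 13 probe sets of antigen processing and costimulation, with an asterisk where the difference passed the test. Psmb8, Psmb9 and Cd83 lie below the background of their array in Slc26a4+/+ and above it in Slc26a4-/-, and Psme1 overlaps between genotypes. The grey band is the range of the background, 187 to 319.

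Of 9 chaperones and translocon genes of the endoplasmic reticulum that class I molecules meet while they fold, 1 rose. This was Pdia4, a protein disulphide isomerase, with 425, 362 and 411 in Slc26a4+/+ against 652, 756 and 904 in Slc26a4-/-, a rise of 0.94 ± 0.18 (adjusted p = 0.0367). Calr, Canx, Pdia3 and Hspa5 did not pass (adjusted p between 0.542 and 0.886). None of 5 other genes of cytosolic peptide trimming and transport passed in limma, and 0 did at an unadjusted p under 0.05.

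In the endosomal route, Lgmn encodes legumain, an asparaginyl endopeptidase. It read 1515, 1023 and 562 in Slc26a4+/+ against 2819, 2815 and 3237 in Slc26a4-/-, a rise of 1.63 ± 0.30 (adjusted p = 0.0253). Slc26a4+/+ replicate 3 was lowest, and all Slc26a4-/- arrays lay above all of its genotype. Ifi30, the lysosomal thiol reductase, read 2653, 3081 and 3002 in Slc26a4+/+ against 3029, 3631 and 3449 in Slc26a4-/- (adjusted p = 0.612).

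Of 11 further genes of endosomal proteolysis and invariant chain handling 2 rose and 0 fell. Ctss encodes cathepsin S, which removes the invariant chain, and read 2338, 2759 and 1816 in Slc26a4+/+ against 7752, 6807 and 7623 in Slc26a4-/-, a rise of 1.70 ± 0.17 (adjusted p = 0.00106). Ctsh encodes cathepsin H, and read 1677, 1854 and 1168 in Slc26a4+/+ against 3431, 3912 and 3626 in Slc26a4-/-, a rise of 1.25 ± 0.18 (adjusted p = 0.00837). Both proteases are abundant in macrophages. Ctsb, Ctsd and Ctsl did not pass (adjusted p = 0.528, 0.12 and 0.459).

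The regulators of these genes did not pass. Among 10 probe sets of Ciita, Nlrc5, Rfx5, Rfxank and Rfxap 0 passed in limma and 0 had an unadjusted p under 0.05. The 3 Ciita sets were above background on no array, the brightest reading 42.9, 159.6 and 55.6 in Slc26a4+/+ against 100.4, 115 and 111 in Slc26a4-/-, so a difference in Ciita could not be measured. Nlrc5 read 70.3, 98.7 and 178 in Slc26a4+/+ against 245, 125 and 172 in Slc26a4-/- and was above background only on Slc26a4-/- replicate 1 (adjusted p = 0.592). Rfx5 read 1151, 1212 and 1146 in Slc26a4+/+ against 1221, 1318 and 1377 in Slc26a4-/-, with a difference of 0.16 ± 0.13 (adjusted p = 0.72).

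Of 16 genes of the enhanceosome that binds these promoters and of interferon gamma signalling, 0 passed in limma, with 1 each higher and lower at an unadjusted p under 0.05. Ifng and Socs1 were above background on no array. Irf1, which acts on interferon response elements, read 733, 975 and 1183 in Slc26a4+/+ against 1170, 733 and 709 in Slc26a4-/- and overlapped between genotypes (adjusted p = 0.854). Irf8 read 189, 211 and 336 in Slc26a4+/+ against 405, 426 and 544 in Slc26a4-/- (adjusted p = 0.146).

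Of the costimulatory members Cd83 rose. It encodes a surface protein of activated antigen-presenting cells, and read 108, 190.3 and 78.8 in Slc26a4+/+ against 468, 477 and 627 in Slc26a4-/-, at least 2.01-fold higher in Slc26a4-/- (adjusted p = 0.012). It was above background on no Slc26a4+/+ array and on all Slc26a4-/- arrays. The 9 sets of Cd80, Cd86 and Cd40, ligands and receptor of T cell help, did not pass, and 8 of them were above background on no array. Of 9 further costimulatory genes 0 passed in limma, with 1 higher and 1 lower at an unadjusted p under 0.05.

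The class I-like members Cd1d1 and Mr1, which present lipids and vitamin B metabolites, did not pass (4 probe sets, 0 higher, 0 lower). Cd1d1 read 668, 657 and 641 in Slc26a4+/+ against 795, 819 and 579 in Slc26a4-/- and Mr1 340.2, 308 and 315 in Slc26a4+/+ against 272, 255 and 257 in Slc26a4-/-. Of 6 other class I-like genes Procr rose, the endothelial protein C receptor, with 95.6, 82.8 and 40.0 in Slc26a4+/+ against 375, 487 and 435 in Slc26a4-/- (adjusted p = 0.00692). It was above background on no Slc26a4+/+ array and at least 1.67-fold higher in Slc26a4-/-. Fcgrt, the neonatal Fc receptor, read 2463, 2570 and 2247 in Slc26a4+/+ against 3058, 3486 and 3573 in Slc26a4-/- (adjusted p = 0.144). H2-Ke6 read 1380, 1258 and 961 in Slc26a4+/+ against 1083, 931 and 906 in Slc26a4-/- (adjusted p = 0.577).

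The Slc26a4-/- arrays did not rank alike over the members. Of 46 member probe sets above background on all 3 Slc26a4-/- arrays, replicate 1 was lowest in 24, replicate 2 in 17 and replicate 3 in 5. Replicate 1 was lowest in 8 of 8 H2-K1 and H2-D1 sets, in 4 of 4 class II sets and in Cd74. In the 3 class II sets that were above background on some Slc26a4+/+ arrays it lay at least 0.65 above the Slc26a4+/+ mean on the log2 scale, and replicates 2 and 3 between 1.12 and 2.24.

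Replicate 1 was instead highest in 3 of 4 immunoproteasome sets and in 4 of 4 sets of Tap1, Tap2, Tapbp and Tapbpl. Psmb10 lay 1.04, 0.79 and 0.84 above the Slc26a4+/+ mean on replicates 1, 2 and 3, and Tap1 1.17, 0.24 and 0.66. H2-Eb1 lay 0.65, 1.42 and 1.52 above it. With 1 array for each pair of animals, this is a description of 3 arrays with no test, and sets of 1 gene share RNA.

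**Figure D4:**
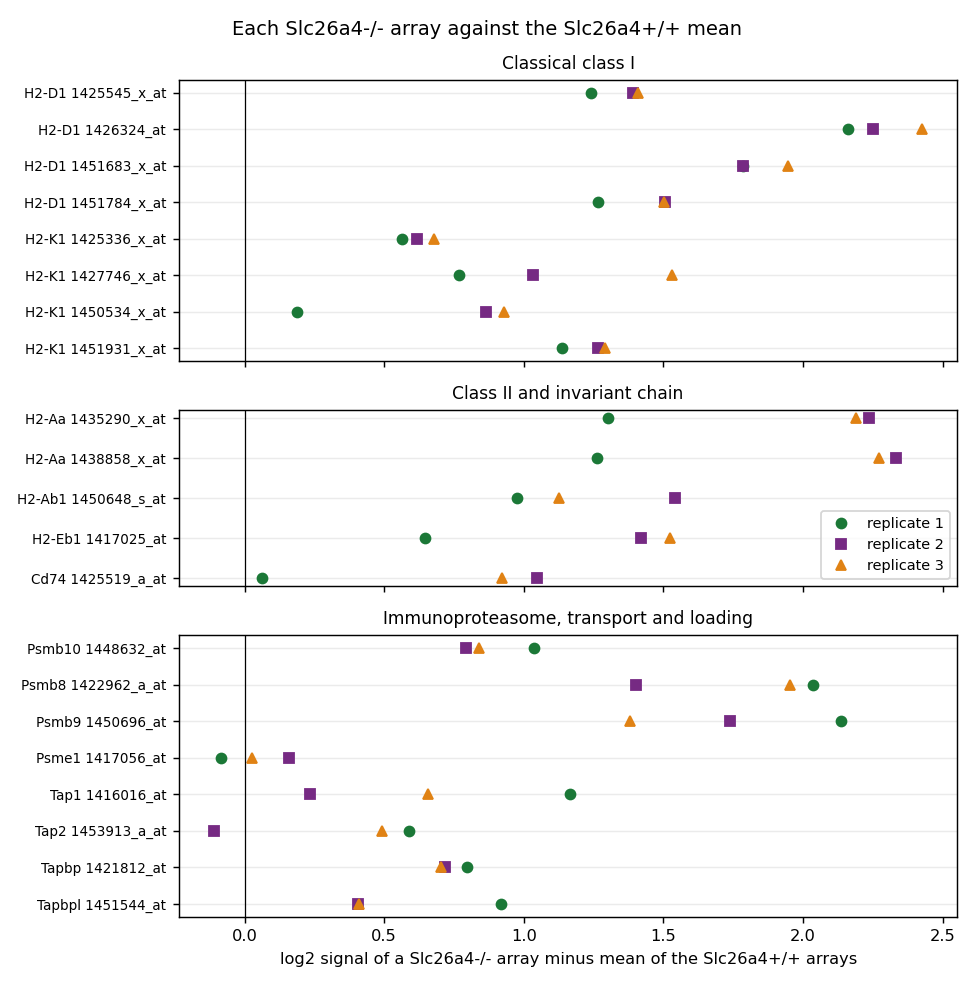
Log2 signal of each Slc26a4-/- array minus the mean of the 3 Slc26a4+/+ arrays. Sets shown are classical class I, class II, Cd74, immunoproteasome, and peptide transport and loading members above background on all 3 Slc26a4-/- arrays. For sets above background on no Slc26a4+/+ array (H2-Aa 1438858_x_at, Psmb8 and Psmb9) the distance from 0 is not a measured fold. Replicate 1 (circles) is lowest in all 8 classical class I sets, in all 4 class II sets and in Cd74, and highest in 7 of the 8 sets of the immunoproteasome, transport and loading.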

How the data were processed

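The deposited values are intensities on a linear scale, 1 for each probe set and array, made by the authors with GCOS (per the submitters' processing notes), which subtracts background and scales every array. No source used here gives its version, its scaling target or detection calls by array. Probe sets were named from the platform annotation, 34945 with 1 symbol. Of 45101 probe sets, 64 controls were left out. Signals under 1 (172 values) were raised to 1, and the log2 values were compared as they stood with limma (version 3.58.1; R version 4.3.3), using lmFit followed by eBayes with trend, two-sided, with Benjamini-Hochberg adjustment over 45037 probe sets and a threshold of 0.05. The 3 arrays of a genotype hold different pools of animals, and their number limits the precision. A gene was represented by its probe set of highest mean log2 signal. All members were named. Values of every array are given for sets past the threshold and for H2-K1 and H2-D1 sets above background on some array. They are also given for B2m, Cd74, the brightest Ciita set and Nlrc5, and for further sets chosen after their values were seen. The members and lists were chosen with earlier results of these data known. The fit was tested on simulated data. Alternatives were other offsets (16 and 64), centring on the median or 75th percentile, quantile normalization, a mean signal of at least 200, no trend, array weights, Xist as a covariate, the replicate number as a block, the methods' t-test, their ratio of 1.3 applied without their Present calls, other background percentiles and leaving out each array. The methods name paired t-tests, and as an alternative the t-test took same-numbered arrays as pairs. The study's RT-PCR, microscopy and Western blots were not analysed here. Replicate numbers come from the labels. Deviations of same-numbered arrays correlated at 0.09, 0.03 and 0.03, so they were not taken as pairs in the main test.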

Additional observations from a re-analysis of the deposited data

How the results depend on the processing

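Of 567 alternative values for single probe sets, 411 kept direction and side of the threshold, 126 no longer passed, 13 newly passed and 17 changed sign. The 17 were in 5 sets of Ciita and H2-D1 above background on no array, and 0 of them passed. Array weights gave 0.042 (Ciita 1421210_at), -0.21 (Ciita 1421211_a_at) and -0.42 (H2-D1 1452544_x_at). The Xist covariate gave -1.23 (Ciita 1421211_a_at), 0.85 (H2-D1 1425614_x_at) and -1.04 (H2-D1 1452544_x_at). Ciita 1447075_at gave 0.00084 and 0.00018 with offsets of 16 and 64, 0.042 centred on the median and 0.10 by quantile normalization. Leaving out 1 array gave between -0.52 and 0.37 for Ciita 1421210_at, -0.47 and 0.57 for 1447075_at, and -0.11 and 0.45 for H2-D1 1452544_x_at. Over all probe sets 778 passed (68.8% of them higher). Centred on the median 448 passed (80.1% higher), without a trend 114, with array weights 4084, with Xist as a covariate 27 and leaving out 1 array between 219 and 1714. By the methods' t-test, here paired by replicate number, 0 passed after Benjamini-Hochberg and 3980 at an unadjusted p under 0.05. The methods' ratio of 1.3, applied here to every probe set without their Present calls, took 19497. For class I, 6 passed, against 2 centred on the median, 0 without a trend, 10 with array weights, 0 with Xist, 0 by the adjusted t-test, 17 by the ratio and 1 to 9 leaving out 1 array. For class II the 5 became 3, 0, 7, 0, 0, 16 and 0 to 4 in the same order. For members outside H2 the 6 became 4, 0, 12, 0, 0, 28 and 0 to 7. With the replicate number as a block 832 probe sets passed in all, 6 of class I, 4 of class II and 6 outside H2, and 17 of the 19 member calls were kept, losing H2-Ea and 1 set of H2-K1. The median of class II minus that of class I was -0.12, and between -0.53 and 0.11 leaving out 1 array. Of the members, 30 were above background on all arrays with the 95th percentile, 34 with the 90th and 22 with the 99th. The causes were not tested. Signal over background limits what could be measured: 50 of 108 members were above background on no array.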
